A study of Mus musculus with 18 samples.

Results

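Msx3, Scn3a, Ablim1, Tuba8, Tpbgl, Macc1, Lad1, Rtn4rl2, Apol7c and Tnfaip8l3 are better known from embryonic neurons, muscle, epithelia or other tissues than from macrophages, and in these cells each went between near silence and clear expression with the cytokines given. They are 10 of the 48794 genes in the count table. The genes were chosen from their own levels in all 3 groups of these libraries, so those levels are given as a description, with no test. Levels are in CPM, counts of a gene per 1000000 counts of its library, with library totals scaled by the trimmed mean of M-values (TMM). With near silence set at a group mean under 0.5 CPM and clear expression at 5 CPM or more, 132 genes of the table went between both, and 9 of the 10 were among them. Ablim1 lay just outside, since its lowest group mean was 0.782 CPM. Tuba8 lay inside with means of 0.00837 and 10.4 CPM, and Macc1 with 0 and 9.64 CPM.

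RNA was sequenced from bone marrow-derived macrophages of male C57BL/6 mice, which are bone marrow cells matured in culture for 7 days with macrophage colony-stimulating factor (M-CSF, 50 ng/ml). All 3 groups then received M-CSF at 10 ng/ml for 24 hours. Control cells had nothing else, IL4_IL13 cells had IL-4 and IL-13 at 10 ng/ml each, and IL4_IL13_TNFa cells had both of these and TNFa at 10 ng/ml. Each group had 6 libraries, and the labels do not say that those of a group came from separate mice or cultures, so the spread between them may be technical. No group received TNFa alone.

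Totals ran from 14793404 to 20056125 counts per library, so that 1 count was worth 0.0481 to 0.0711 CPM. The first Control library stood apart: 1836 genes differed more than 2-fold between it and the other Control libraries, against 89 to 393 genes for the other 17 libraries. All 8 macrophage markers examined were detected in every group, but most were lower with cytokines. In edgeR's test with Benjamini-Hochberg adjustment over all genes, Cd68 and Ctss were higher with all 3 cytokines than in Control and the other 6 lower, by 4.02-fold for Adgre1, 3.76-fold for Lyz2 and 9.49-fold for Mertk. The Fc receptor gene Fcgr1 was at 130, 21.8 and 0.999 CPM in Control, IL4_IL13 and IL4_IL13_TNFa. The part of these markers in the levels of the 10 genes was not tested. T and B cell markers were under 0.5 CPM in every group (5 of 5), while fibroblast and stromal markers summed to between 21.1 and 672 CPM in Control, 59.8 and 624 CPM in IL4_IL13 and 61.9 and 393 CPM in IL4_IL13_TNFa libraries, with Dcn, Lum and Thy1 near 0. In bulk RNA, fewer cells expressing a gene and less RNA per cell cannot be told apart.

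IL-4 and IL-13 signal through receptors that share the IL-4 receptor alpha chain and activate the transcription factor STAT6, which drives the alternatively activated state of macrophages. TNFa signals through its own receptors to NF-kB and to the kinases that activate AP-1. PU.1 is a lineage factor bound at many macrophage enhancers and promoters. A gene that a cell type keeps silent may have a promoter rich in CpG dinucleotides, as many developmental regulators do, or one that is poor in them, as many tissue-restricted genes do.

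The promoters of the 10 genes were of both kinds. RefSeq (GRCm38.p6) windows from 250 bases before to 50 bases after the start site were at hand for 9 of them. The ratio of observed to expected CpG in the window was 0.858 for Rtn4rl2, 0.823 for Msx3 and 0.691 for Lad1. For Ablim1 the ratio was 0.642 at the most upstream start and 0.290 to 0.502 at its other starts. It was 0.398 for Tnfaip8l3 and 0.397 for Tuba8, close to the median of 0.384 over 32851 windows, and 0.275 for Tpbgl, 0.255 for Macc1 and 0 for Apol7c. To show this range, 100 bases from position -150 to -51 before the start site follow for 4 genes, from chr7:140049139-140049238 (minus strand), chr2:84886743-84886842 (minus), chr6:121210584-121210683 (plus) and chr15:77533366-77533465 (minus), with each CpG in capitals.
Msx3: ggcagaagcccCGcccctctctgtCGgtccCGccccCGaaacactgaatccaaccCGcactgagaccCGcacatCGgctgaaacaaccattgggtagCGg
Rtn4rl2: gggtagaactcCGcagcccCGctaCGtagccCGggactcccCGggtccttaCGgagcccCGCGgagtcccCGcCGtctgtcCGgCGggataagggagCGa
Tuba8: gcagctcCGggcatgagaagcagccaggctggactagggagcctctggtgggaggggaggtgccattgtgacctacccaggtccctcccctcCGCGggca
Apol7c: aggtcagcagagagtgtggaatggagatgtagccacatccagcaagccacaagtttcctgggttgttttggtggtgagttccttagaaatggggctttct
Rtn4rl2 had 13 CpG in these 100 bases, Msx3 8, Tuba8 3 and Apol7c 0. Genes with the same direction differed in this feature: Rtn4rl2 and Apol7c were both near silent until TNFa was added.

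Motifs of the factors named above were searched on both strands of the same windows. They were TTCNNNNGAA for STAT6, TTCNNNGAA for STAT factors in general, TGANTCA for AP-1, GAGGAA for PU.1 and the NF-kB consensus, and 6.95%, 8.30%, 7.81%, 28.3% and 8.46% of the 32851 windows held them. The NF-kB consensus stood in the Rtn4rl2 window at position -118, where the same bases matched it on both strands. AP-1 stood in the Macc1 window at position -230, and STAT6 in the Apol7c window at position -72. The Macc1 window belongs to a RefSeq start inside the gene span given below, not to its GENCODE start. The 3 matches are shown in capitals with their surroundings, from chr2:84886781-84886830 (minus strand), chr12:119443160-119443206 (plus) and chr15:77533358-77533407 (minus), since these genes were all highest with TNFa.
Rtn4rl2: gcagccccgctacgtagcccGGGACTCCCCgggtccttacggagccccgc
Macc1: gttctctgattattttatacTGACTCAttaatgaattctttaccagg
Apol7c: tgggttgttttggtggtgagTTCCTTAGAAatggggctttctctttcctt
Of the other 6 genes with a window, Ablim1, which has 5 start sites, had an AP-1 match before one of them and a STAT6 match before another, and the latter shared bases with a PU.1 match. PU.1 matches also stood in the Tpbgl, Tnfaip8l3 and Macc1 windows. The Msx3, Tuba8 and Lad1 windows held none of the 5 motifs. A match says only that these letters occur there.

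Expression of 3 of the genes was clear only with IL-4 and IL-13 in the absence of TNFa. Msx3 encodes a homeobox transcription factor of the dorsal neural tube, and in microglia, the macrophages of the brain, it has been described as favouring the alternatively activated state. The gene lies at chr7:140046157-140049089 on the minus strand (GRCm38). Its level was 0 in 4 of the 6 Control libraries and at most 0.0962 CPM (3 counts in all). In IL4_IL13 libraries it was at lowest 15.9, at the median 19.6 and at highest 38.9 CPM, and with TNFa added it was 0, 0.398 and 0.548 CPM. The IL4_IL13 libraries therefore lay far above both other groups, whose ranges overlapped. As a ratio of summed counts with a 95% counting interval, which covers counting error only, Msx3 was 882-fold higher in IL4_IL13 than in Control (301 to 4278; 2149-fold without the second Control library, which held 2 of the 3 counts) and 71.6-fold lower once TNFa was added (50.0 to 106). With all 3 cytokines it was 12.3-fold above Control (3.83 to 63.1; 30.0-fold without that library).

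Scn3a, a voltage-gated sodium channel alpha subunit of embryonic and injured neurons, had the same order of groups. The gene spans chr2:65457118-65567627 on the minus strand. It ranged from 0.168 to 0.661 CPM in Control (median 0.268), from 16.5 to 28.1 CPM in IL4_IL13 (median 21.8) and from 0.125 to 0.569 CPM with TNFa added (median 0.304). Unlike Msx3, Scn3a was detected in every library. Its level was 68.5-fold higher in IL4_IL13 than in Control (49.1 to 98.6) and 69.5-fold lower with TNFa than without (48.0 to 105). The ratio of IL4_IL13_TNFa to Control was 0.985 (0.577 to 1.67). Msx3 and Scn3a were the only genes of the table under 0.5 CPM in Control, at 5 CPM or more in IL4_IL13 and under 0.5 CPM again with TNFa.

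Ablim1 encodes an actin-binding LIM protein of muscle and retina, at chr19:57032733-57314919 on the minus strand. It ran from 0.116 to 1.60 CPM in Control (median 0.742), from 8.68 to 24.0 CPM in IL4_IL13 (median 13.4) and from 0.793 to 1.49 CPM with TNFa (median 0.886). The pattern was that of Scn3a, but from a higher floor. Ablim1 was 20.1-fold higher in IL4_IL13 than in Control (16.2 to 25.3), 15.4-fold lower with TNFa (12.5 to 19.3), and 1.3-fold above Control with all 3 cytokines (0.960 to 1.77), with overlapping libraries in that last comparison.

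Within IL4_IL13 the libraries themselves differed. Msx3 and Ablim1 were each highest in replicates 1 and 2, with 38.9 and 27.8 CPM for Msx3 and 21.1 and 24.0 CPM for Ablim1. The other 4 replicates were at 15.9 to 19.7 CPM for Msx3 and 8.68 to 13.4 CPM for Ablim1. Scn3a did not share this order and was lowest in replicate 1. Replicate 1 also had the lowest stromal marker sum of that group, 59.8 CPM against 102 to 624 CPM, and the highest level of the cadherin gene Cdh1, 86.6 CPM against 15.9 to 43.5 CPM. In Control and IL4_IL13_TNFa, too, replicate 1 had the lowest stromal sum (21.1 and 61.9 CPM) and the highest Cdh1. Replicate 2 of IL4_IL13 had a stromal sum of 220 CPM and the second highest Cdh1 of that group, 43.5 CPM. Cdh1 ranked the IL4_IL13 libraries in the same order as Msx3, but not as Ablim1. The part of the stromal sum and of Cdh1 in the levels of Msx3 and Ablim1 was not tested.

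Neuronal markers were looked at beside Msx3 and Scn3a. In each group, 7 of 10 were under 0.5 CPM, with Stmn2 and Nefl at or near 0. Their sum was 9.68 to 12.4 CPM in Control, 43.8 to 58.5 CPM in IL4_IL13 and 6.78 to 9.88 CPM with TNFa, and most of the difference was Map2, a microtubule protein, at 0.918, 37.4 and 3.46 CPM.

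Tuba8 was the one gene of the 10 that came on with IL-4 and IL-13 and was still clearly expressed with TNFa. It encodes an alpha tubulin of muscle, testis and platelets, at chr6:121210696-121226854 on the plus strand. Control libraries held a single Tuba8 count, in replicate 1. IL4_IL13 libraries were at lowest 8.0, at the median 10.8 and at highest 11.7 CPM, and IL4_IL13_TNFa libraries at 7.47, 8.72 and 10.4 CPM. The ranges of these groups overlapped, and the ratio with to without TNFa was 0.844 (0.769 to 0.925), or 0.731 on library totals alone. Against Control, Tuba8 was 1159-fold higher with IL-4 and IL-13 (208 to 45820) and 978-fold higher with all 3 cytokines. Without Control replicate 1, the library that stood apart, Control was at 0 and the bounds from a floor of 3 counts over the group were at least 317-fold and at least 267-fold higher. Of the 50-base words in its exons, 14.7% also occur in other genes, which were Tuba3a, Tuba3b and the antisense gene Gm15856. Gm15856 was at 0.0190, 0.115 and 0.0753 CPM in the 3 groups. The strand setting of the counting was not given in the sources used here. Reads of such overlapping genes may therefore not be separated.

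Tpbgl went the other way. It encodes a leucine-rich repeat membrane protein related to the trophoblast glycoprotein Tpbg, an inhibitor of Wnt signalling, from a single exon at chr7:99624082-99627103 on the minus strand. Its level was 11.6 to 14.5 CPM in Control (median 13.6), 3.45 to 4.42 CPM in IL4_IL13 (median 3.77) and 0 in 4 of 6 libraries with TNFa, the highest of which was at 0.142 CPM. No 2 groups overlapped, and the replicates were close, with a coefficient of variation of 7.26% in Control. The level was 3.48-fold lower with IL-4 and IL-13 than in Control (3.12 to 3.90). It was a further 86.6-fold lower with TNFa (33.6 to 320; 146-fold without the second TNFa library, which held 2 of the 4 counts), and 302-fold below Control (118 to 1109; 510-fold without that library). The antisense gene Gm10605 overlaps the exon and shares 37.6% of its 50-base words. It was at 1.36, 1.14 and 0.531 CPM.

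Near silence until TNFa was added was seen for 4 genes: Macc1, Lad1, Rtn4rl2 and Apol7c. Macc1, a regulator of transcription of the growth factor receptor gene Met, was named for its association with metastasis of colon cancer and lies at chr12:119314270-119469987 on the plus strand. It had 0 counts in all 6 IL4_IL13 libraries and 2 counts over the Control libraries. With TNFa it was at 8.32, 9.44 and 11.7 CPM (lowest, median and highest). It was at least 339-fold higher with TNFa than without, taking a floor of 3 counts over the group. Against Control it was 535-fold higher (148 to 4425; 895-fold without Control replicate 5). The levels of Macc1 in Control and IL4_IL13 were both at or under the floor, and no ratio is given.

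Lad1 reached the highest level of the 10. It encodes ladinin, an anchoring filament protein of the basement membrane beneath epithelia, at chr1:135818598-135833342 on the plus strand. Control libraries were at 0.151 to 0.232 CPM (median 0.185), IL4_IL13 libraries at 0.0539 to 1.49 CPM (median 0.152) and IL4_IL13_TNFa libraries at 73.1 to 102 CPM (median 86.3). The whole TNFa group was thus well over an order of magnitude above every other library. Replicate 1 of IL4_IL13 alone held 31 of the 46 Lad1 counts of its group. With it, Lad1 was 200-fold higher with TNFa than without (150 to 274), and without it 493-fold. The ratio of IL4_IL13 to Control was 2.31 with that library (1.35 to 4.07) and 0.938 without it, so its direction rested on 1 library. Against Control, the level with all 3 cytokines was 462-fold higher (302 to 747).

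Rtn4rl2 is a Nogo receptor relative, a lipid-anchored surface protein through which neurons sense myelin proteins such as Mag. It lies at chr2:84871924-84886710 on the minus strand. Counts over the groups were 2 in Control, 8 in IL4_IL13 and 1223 with TNFa. In CPM, Control ranged from 0 to 0.0592, IL4_IL13 from 0 to 0.123 and IL4_IL13_TNFa from 11.5 to 16.6 (median 13.1). The first 2 ranges overlapped and the third was separate. Rtn4rl2 was 179-fold higher with TNFa than without (90.4 to 415) and 753-fold above Control (208 to 6225; 1276-fold without Control replicate 3). Between IL4_IL13 and Control the ratio was 4.21 (0.841 to 40.7; 7.14 without that library).

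Apol7c belongs to the apolipoprotein L family, whose members insert into membranes, and has been studied in dendritic cells, where it ruptures phagosomes. The gene is at chr15:77524852-77533316 on the minus strand. It was 0 in 4 of 6 Control libraries and at most 0.220 CPM. IL4_IL13 libraries ran from 0.0566 to 1.08 CPM (median 0.364), and IL4_IL13_TNFa libraries from 35.9 to 60.3 CPM (median 41.9). A low level in IL4_IL13 was present in all 6 libraries, though its range met that of Control. Apol7c was 98.8-fold higher with TNFa than without (73.9 to 135; 144-fold without IL4_IL13 replicate 6). It was 958-fold above Control (410 to 2951), or 4005-fold without Control replicate 5, which held 4 of the 5 Control counts. For IL4_IL13 against Control the ratio was 9.69 (3.87 to 31.3), or 40.5 without that library. Near-identical family members make the value less certain, since 25.6% of its 50-base words recur in Apol7a, Apol7b, Apol7e and predicted genes.

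Tnfaip8l3 was also highest with TNFa, but it rose in 2 steps, the first of them without TNFa. Despite its name it encodes a protein that binds and transfers phosphoinositide lipids, at chr9:54023405-54068388 on the minus strand. It was at 0 to 0.118 CPM in Control (median 0.0565), 0.653 to 1.40 CPM in IL4_IL13 (median 1.18) and 14.9 to 23.1 CPM with TNFa (median 18.4). Unlike the 4 genes above, no library of one group reached into another. The steps were of similar size, 17.8-fold from Control to IL4_IL13 (8.36 to 45.1) and 16.6-fold from there to IL4_IL13_TNFa (13.7 to 20.1), and 294-fold in all (143 to 733).

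**Figure D1:**
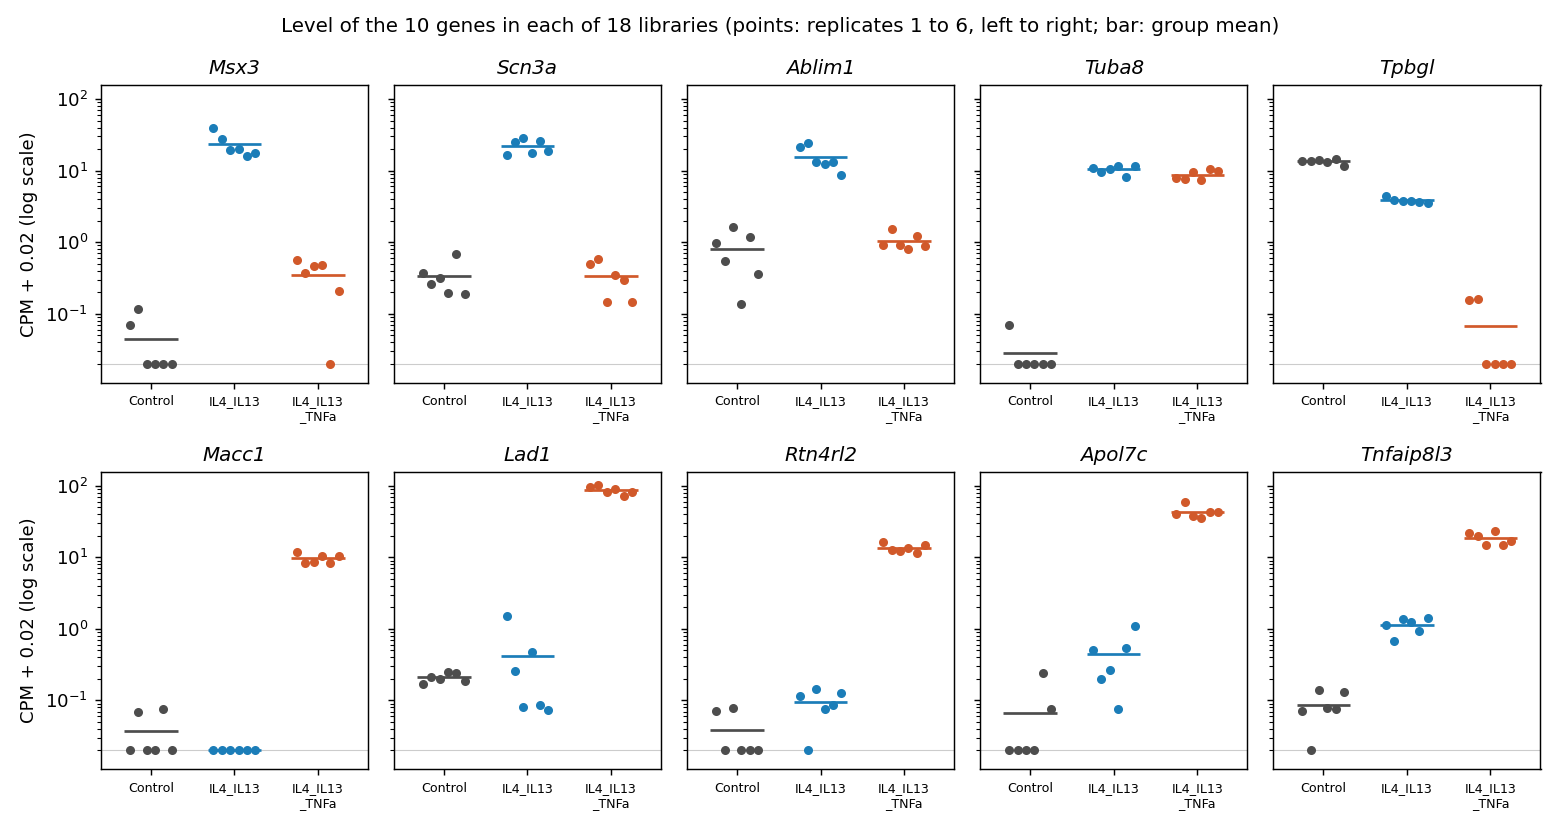
CPM of the 10 genes in each of the 18 libraries, plotted on a log axis after adding 0.02 so that libraries at 0 can be drawn. Points are replicates 1 to 6 from left to right and bars are group means. The IL4_IL13 points of Msx3, Scn3a and Ablim1 stand above both other groups, Tuba8 is high in both cytokine groups, Tpbgl steps down, and the lower row is high with TNFa.

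Epithelial and dendritic cell markers were looked at beside the genes that were highest with TNFa. Of 10 epithelial markers, 9 were under 0.5 CPM in each group, and Krt8, Krt18 and Cldn4 were at or near 0. The exception was Cdh1, at 0.581, 39.1 and 8.17 CPM in Control, IL4_IL13 and IL4_IL13_TNFa, which was highest where Macc1 and Lad1 were near 0. The 10 dendritic markers summed to a median of 207, 229 and 221 CPM, but the similar sums held different genes. Most of each sum was Wdfy4, at 212, 171 and 147 CPM. Batf3 and Zbtb46, transcription factors of dendritic cells, were at 0.990, 50.8 and 31.2 CPM and at 0.709, 2.76 and 33.9 CPM. The chemokine receptor gene Ccr7 was at 0.0462, 0.0315 and 1.33 CPM. Xcr1 was at 0.0277 CPM or less and Clec9a at 0.357, 0.408 and 0.619 CPM. Flt3 went the other way, at 0.858, 0.541 and 0.290 CPM, and Cd209a was at 0.0997, 0.458 and 0.0116 CPM. Fscn1 was at 5.94, 4.74 and 6.13 CPM, and Siglech at 0.102 CPM or less. The part of these markers in the levels of the 10 genes was not tested.

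Per kilobase of exon, which allows levels of different genes to be set side by side, the 10 genes differed widely in their highest group. Lad1 was at 25.8 CPM per kb and Apol7c at 21.1, above 84.8% and 81.3% of the 13177 genes that passed the filter on low counts. Msx3 (9.86) and Rtn4rl2 (9.01) stood above 64.0% and 62.0%. Tuba8 (4.58), Tpbgl (4.43) and Tnfaip8l3 (4.06) were near the middle, above 44.8%, 44.3% and 43.2%. Scn3a (1.77), Ablim1 (1.29) and Macc1 (1.15) were lower, above 27.0%, 22.8% and 22.7%. In its lowest group, each of the 10 stood above at most 1.68% of these genes.

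All 10 genes passed the filter, each through the group in which it was high. Among the 132 genes that went between under 0.5 and at least 5 CPM, some patterns were common and others rare. Under 0.5 CPM in Control and IL4_IL13 and at 5 CPM or more with TNFa were 26 genes, Macc1, Lad1, Rtn4rl2 and Apol7c among them. Intermediate with IL-4 and IL-13 and highest with TNFa, as Tnfaip8l3 was, were 20. The pattern of Tuba8, near 0 in Control and clear in both other groups, was that of 23 genes. For Tpbgl, which was clear in Control, intermediate in IL4_IL13 and near 0 with TNFa, the class held 27 genes.

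**Figure D2:**
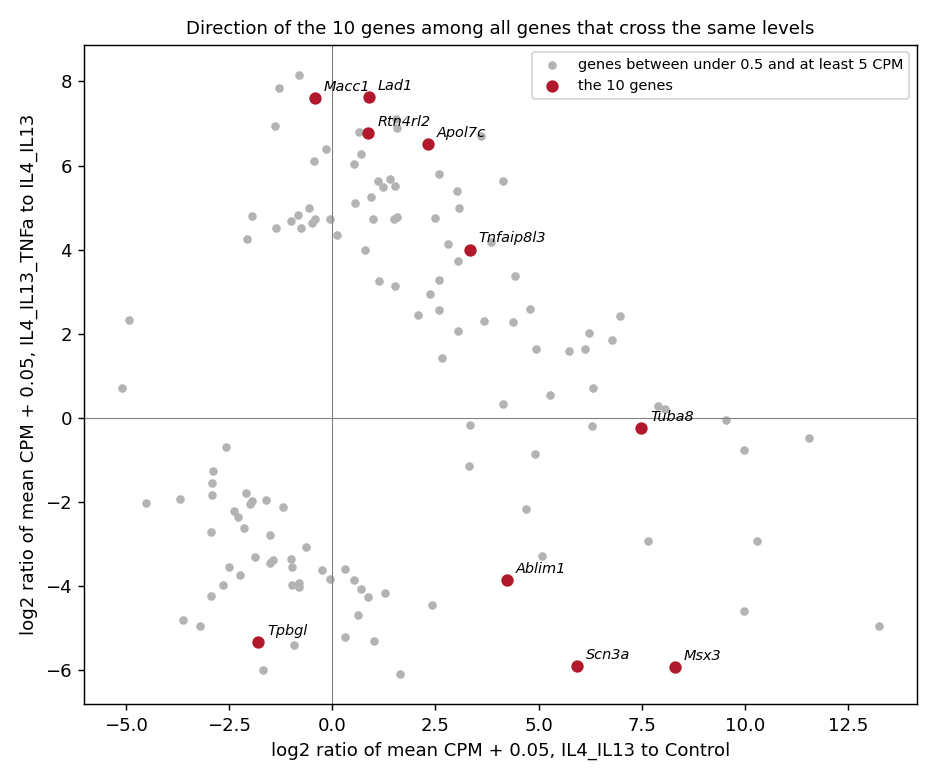
Each of the 132 genes that went between under 0.5 and at least 5 CPM, with Ablim1 added, by the log2 ratio of mean CPM + 0.05 between IL4_IL13 and Control (horizontal) and between IL4_IL13_TNFa and IL4_IL13 (vertical). Msx3 and Scn3a lie at the lower right, the genes highest with TNFa in the upper part and Tpbgl at the lower left.

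Gene families and known partners of the 10 genes were examined next: 99 genes, of which 57 were under 0.5 CPM in all 3 groups and 39 could be tested. These tests, unlike the levels above, do not use the values that chose the 10 genes. The list was still chosen with earlier results of these data known. With edgeR's quasi-likelihood test and Benjamini-Hochberg adjustment over all genes, 15 of the 39 rose and 11 fell with IL-4 and IL-13 (38.5% and 28.2%), where 29.3% and 29.7% of all 13177 genes did. On adding TNFa, 8 rose and 20 fell (20.5% and 51.3%), where the shares over all genes were 30.3% and 29.3%. For all 3 cytokines against Control the counts were 13 higher and 17 lower (33.3% and 43.6%), against 36.4% and 37.3% of all genes. The median log2 fold changes of the list were 0.04, -0.30 and -0.09, beside -0.00, 0.00 and -0.02 over all genes. The share that fell on adding TNFa was the farthest from that of all genes, a difference that was not tested. None of the 99 itself went between under 0.5 and at least 5 CPM.

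Msx and Dlx homeobox genes, which act together in embryonic patterning, were almost silent. Of 8, 6 were under 0.5 CPM in every group, as were all 10 patterning genes and signals listed as partners of Msx3, such as Pax3 and Wnt1. Dlx3, named after its values were seen, was at 0.0937, 2.92 and 0.0435 CPM in Control, IL4_IL13 and IL4_IL13_TNFa, the order of Msx3. It rose by 4.91 ± 0.42 (log2 fold change ± approximate standard error; edgeR adjusted p = 1.16e-08) and dropped by 5.83 ± 0.49 with TNFa (adjusted p = 5.21e-09). Dlx2, likewise named after its values were seen, had the opposite order against Control, at 2.89, 0.530 and 0.109 CPM.

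Sodium channel alpha subunits other than Scn3a could not be tested, since all 9 were too low: 8 were under 0.5 CPM in every group, and the highest, Scn9a, reached 0.560 CPM. Of the 8 partners listed for Scn3a, 4 could be tested, and they did not share a direction. Fgf13, which binds the tail of sodium channels and also microtubules, rose in both steps, from 5.27 to 9.02 and 13.7 CPM (log2 0.77 ± 0.11 and 0.60 ± 0.11, edgeR adjusted p = 1.15e-05 and 9.12e-05). Scn3b, a channel beta subunit gene named after its values were seen, fell in both steps, from 2.10 to 0.473 and 0.147 CPM (log2 -2.15 ± 0.33 and -1.65 ± 0.49, edgeR adjusted p = 2.39e-05 and 0.00747). Ank3 passed in neither step.

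Other alpha tubulins were either expressed in every group or nearly silent in all. Tuba1a was at 22.0, 34.7 and 47.2 CPM and rose in both steps (log2 0.66 ± 0.09 and 0.44 ± 0.09, edgeR adjusted p = 1.09e-05 and 4.32e-04). Among beta tubulins, with which alpha tubulins pair, Tubb2a rose from 42.5 to 93.2 and 133 CPM (log2 1.13 ± 0.06 and 0.51 ± 0.06, adjusted p = 3.73e-11 and 1.11e-06). Tubb2b was at 1.80 and 1.72 CPM without TNFa and 5.26 CPM with it (log2 1.60 ± 0.19, adjusted p = 5.12e-07). Other tubulins fell in one step, and are named here after their values were seen. Tuba4a was at 36.8, 21.4 and 23.7 CPM and fell with IL-4 and IL-13 (log2 -0.78 ± 0.23, edgeR adjusted p = 0.00737). Tuba1b and Tubb5 rose in that step (log2 0.94 and 0.80) and fell on adding TNFa (log2 -0.67 and -0.51, adjusted p = 0.0340 and 0.0376), and these falls held in 19 and 18 of 27 alternatives. Tubb4b fell with TNFa (log2 -0.66 ± 0.23, adjusted p = 0.0189). Tuba3a, Tuba3b and Tubal3 were at most 0.0170 CPM in any group.

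Met, the receptor gene that Macc1 regulates in tumour cells, had the same order as Macc1. It was at 0.953 CPM in Control, 0.979 CPM in IL4_IL13 and 50.5 CPM with TNFa, where the libraries ranged from 40.6 to 70.8 CPM. The log2 fold change on adding TNFa was 5.64 ± 0.37 (edgeR adjusted p = 2.64e-10), and all 6 libraries were above every library of the other groups. Hgf, which encodes the ligand of Met, went from 34.2 and 32.1 to 14.6 CPM (log2 -1.13 ± 0.15, adjusted p = 3.58e-06). Sh3bp4, the closest relative of Macc1, went from 8.45 and 8.30 to 16.6 CPM (log2 1.00 ± 0.11, adjusted p = 1.81e-07).

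Of the 8 basement membrane partners listed for Lad1, 3 could be tested, and they did not share a direction. Itga6, the integrin alpha chain of hemidesmosomes, fell in both steps, from 753 to 145 and 19.3 CPM (log2 -2.37 ± 0.18 and -2.91 ± 0.19, edgeR adjusted p = 2.94e-09 and 2.11e-10). Lama3, a laminin chain that such integrins bind, was at 6.26, 6.07 and 0.573 CPM and fell with TNFa by 3.40 ± 0.24 (log2; adjusted p = 6.36e-10). Lamb3, another laminin chain, named after its values were seen, was at 0.201, 0.665 and 0.609 CPM. It rose with IL-4 and IL-13 (log2 1.70 ± 0.38, adjusted p = 9.86e-04) and did not pass on adding TNFa (log2 -0.14 ± 0.33, adjusted p = 0.742). The other 5 were under 0.5 CPM in all groups.

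Relatives in the Nogo receptor family went opposite ways with TNFa. Rtn4rl1, the other relative of the Nogo receptor Rtn4r, was at 14.5, 20.1 and 0.831 CPM where Rtn4rl2 was at 0.0182, 0.0750 and 13.6 CPM. Rtn4rl1 rose by 0.47 ± 0.10 (log2) with IL-4 and IL-13 (edgeR adjusted p = 8.27e-04) and fell by 4.58 ± 0.14 on adding TNFa (adjusted p = 5.31e-15). Mag, a myelin ligand of these receptors, rose with TNFa from 1.79 to 9.84 CPM (log2 2.46 ± 0.12, adjusted p = 3.03e-12). Rtn4, which encodes Nogo itself, fell from 881 to 715 CPM in that step (log2 -0.30 ± 0.08, adjusted p = 0.00218).

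For Apol7c, 11 of 13 family members were under 0.5 CPM in all groups, and only Apold1 could be tested. Neighbouring copies Apol7a, Apol7b and Apol7e were at most 0.0854 CPM in any group, while Apol7c itself averaged 43.4 CPM with TNFa. In the Tnfaip8 family all 3 other members were expressed, and each fell when TNFa was added. Tnfaip8l2, a brake on immune receptor signalling, fell in both steps, from 111 to 61.4 and 31.8 CPM (log2 -0.85 ± 0.19 and -0.95 ± 0.20, edgeR adjusted p = 0.00117 and 4.59e-04). Tnfaip8 and Tnfaip8l1 rose with IL-4 and IL-13 (log2 0.49 ± 0.05 and 0.72 ± 0.13) and fell with TNFa (log2 -0.24 ± 0.05 and -0.48 ± 0.13), each with an adjusted p of 0.00469 or less. Lrp6, the Wnt co-receptor on which Tpbg acts, fell from 156 to 103 CPM with IL-4 and IL-13 (log2 -0.60 ± 0.07, adjusted p = 3.25e-07). Svil, related to Ablim1 through its headpiece domain, rose and then fell (log2 0.28 ± 0.06 and -0.71 ± 0.06, adjusted p = 6.21e-04 and 9.04e-09).

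**Figure D3:**
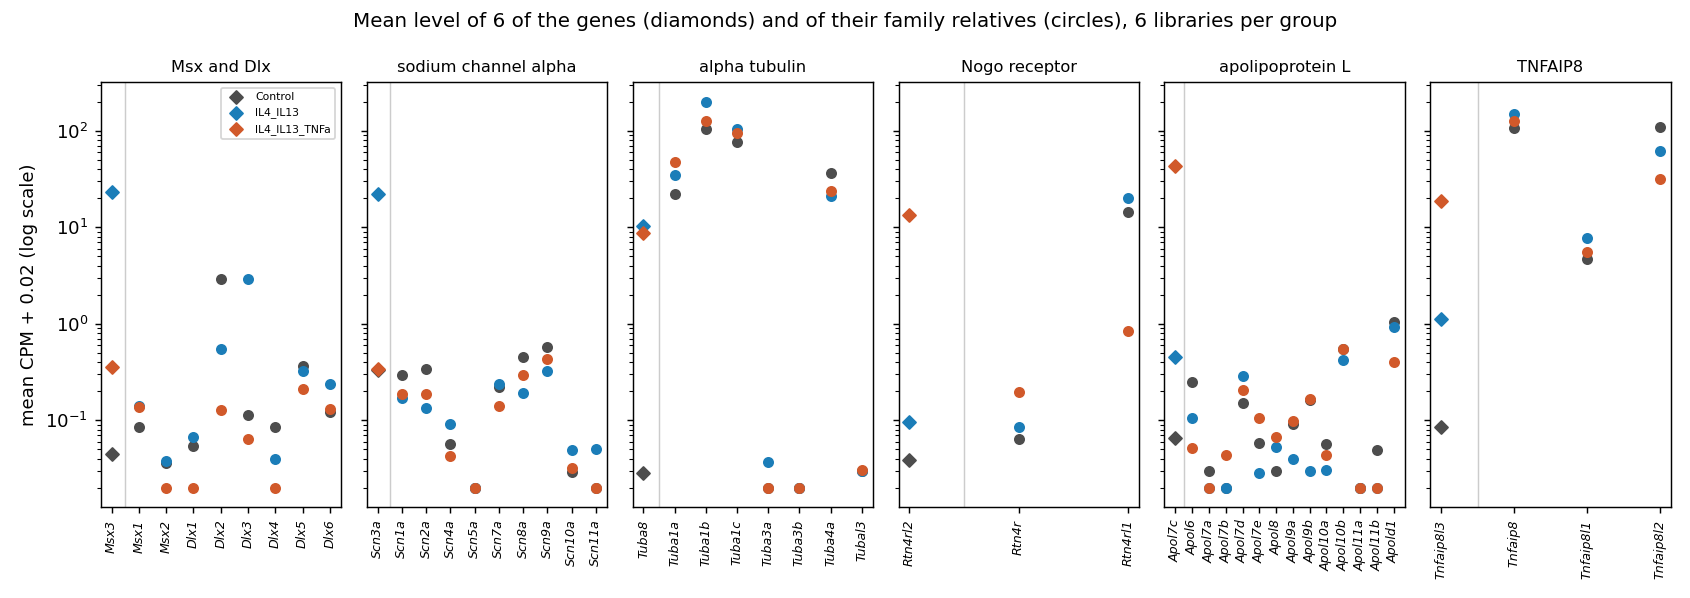
Mean CPM + 0.02 on a log axis of 6 of the genes (diamonds, left of the line in each panel) and of their family relatives (circles) in the 3 groups. Sodium channel and apolipoprotein L relatives are at most 1.02 CPM in any group, alpha tubulin relatives are either expressed in all groups or near 0 in all, Tnfaip8 relatives are expressed throughout, and Rtn4rl1 falls with TNFa as Rtn4rl2 appears.

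Chromosomal neighbours show whether a region or a single gene differed. For each of the 10 genes, the 3 nearest protein-coding start sites on either side gave 58 genes, of which 57 were in the table, 30 were under 0.5 CPM in all groups and 24 could be tested. With edgeR and Benjamini-Hochberg adjustment over all genes, 12 rose and 6 fell with IL-4 and IL-13 (50.0% and 25.0%), 11 rose and 9 fell on adding TNFa (45.8% and 37.5%), and 12 were higher and 6 lower with all 3 cytokines than in Control (50.0% and 25.0%). The median log2 fold changes were 0.33, 0.25 and 0.36. The shares that were higher exceeded the 29.3%, 30.3% and 36.4% of all genes. Of all genes, 29.7%, 29.3% and 37.3% were lower. The neighbours' share that was lower exceeded this on adding TNFa and was below it in the other comparisons. These differences were not tested, and most neighbours of the 10 genes were themselves near silent.

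Some neighbours changed in the same direction as the gene beside them, and the largest such changes were at Macc1 and Tpbgl. Itgb8, an integrin beta chain gene that activates latent TGF-beta, starts 75468 bases from the GENCODE start of Macc1, chr12:119314270. The RefSeq start of the Macc1 promoter window lies inside the Macc1 span, farther from Itgb8. Itgb8 was at 0.337, 5.49 and 101 CPM, higher in each step (log2 4.0 ± 0.20 and 4.21 ± 0.13, edgeR adjusted p = 7.86e-12 and 6.14e-15). Slco2b1, an organic anion transporter gene, starts 84237 bases from Tpbgl and was at 70.9, 22.2 and 0.300 CPM, lower in each step (log2 -1.67 ± 0.11 and -6.18 ± 0.19, adjusted p = 4.43e-10 and 5.77e-15). Both went between under 0.5 and at least 5 CPM. Itgb8 was already above 5 CPM with IL-4 and IL-13, where Macc1 had no counts, while Slco2b1 stepped down as Tpbgl did.

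Smaller changes of this kind, named after their values were seen, were found beside Msx3, Scn3a and Rtn4rl2. Tubgcp2, a gamma-tubulin complex gene by Msx3, was at 39.0, 69.5 and 35.9 CPM, and rose and then fell (log2 0.83 ± 0.14 and -0.95 ± 0.14, edgeR adjusted p = 6.02e-05 and 1.11e-05). Zfp511 and Adam8, also by Msx3, rose with IL-4 and IL-13 (log2 0.27 and 0.68, adjusted p = 0.00190 and 6.66e-04). Their falls with TNFa (log2 -0.15 and -0.36, adjusted p = 0.0491 and 0.0388) held in 9 and 15 of 27 alternatives. Cobll1 by Scn3a was at 0.80, 4.69 and 1.62 CPM, and rose and then fell as Scn3a did (log2 2.54 ± 0.22 and -1.53 ± 0.20, adjusted p = 1.19e-08 and 2.75e-06). Timm10, a mitochondrial import gene by Rtn4rl2, rose with TNFa from 8.56 to 19.0 CPM (log2 1.15 ± 0.14, adjusted p = 7.61e-07). It had also risen with IL-4 and IL-13, from 4.96 CPM.

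Other neighbours differed from the gene beside them. Slc6a13 and Slc6a12, transporter genes near Tuba8, were at 1.03 and 27.2 CPM without TNFa and at 11.9 and 211 CPM with it (log2 3.52 ± 0.15 and 2.96 ± 0.18, edgeR adjusted p = 5.58e-13 and 7.53e-11), while Tuba8 itself was similar in both groups. Atrnl1 by Ablim1 had the reverse order, at 35.6, 8.11 and 45.6 CPM (log2 -2.14 ± 0.21 and 2.5 ± 0.21, adjusted p = 1.14e-07 and 9.36e-09). Galnt3 and Fuom are named after their values were seen. Galnt3 by Scn3a was at 9.34, 2.01 and 0.788 CPM. It fell with IL-4 and IL-13, where Scn3a was higher (log2 -2.21 ± 0.18, edgeR adjusted p = 6.76e-09). Fuom by Msx3 was at 2.67, 5.91 and 10.2 CPM. It rose on adding TNFa, where Msx3 was lower (log2 0.79 ± 0.14, adjusted p = 8.69e-05). Slc43a3 by Rtn4rl2 was at 20.1, 26.3 and 5.22 CPM and fell with TNFa (log2 -2.33 ± 0.31, adjusted p = 3.68e-06). Its difference between IL4_IL13 and Control did not pass (log2 0.39, edgeR adjusted p = 0.249). In the fit blocked by replicate number it passed (log2 0.51, adjusted p = 0.0488).

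**Figure D4:**
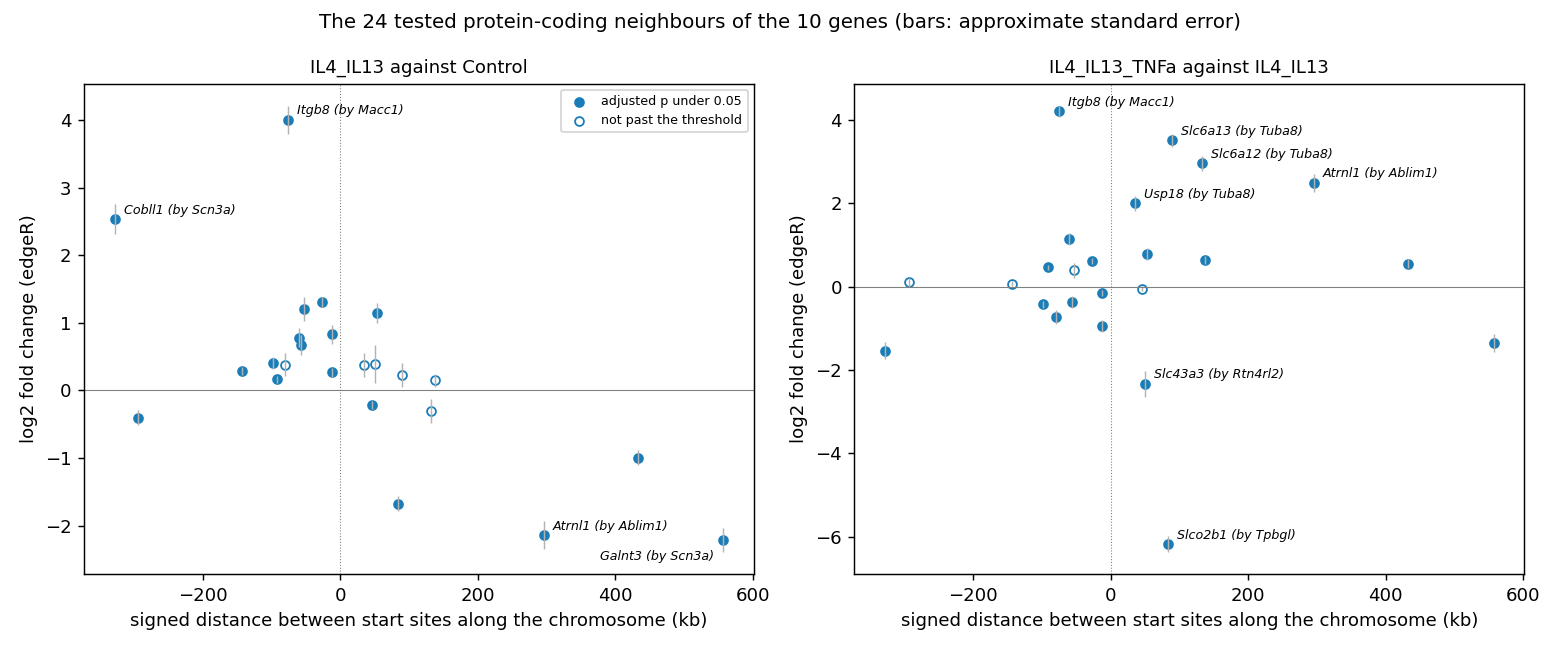
edgeR log2 fold changes of the 24 tested neighbours by the signed distance between start sites along the chromosome in kb, for IL-4 and IL-13 (left) and for adding TNFa (right). Filled points passed an adjusted p of 0.05 and bars are approximate standard errors; Itgb8 is high in both panels and Slco2b1 is lowest on the right.

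Expression across the 18 libraries was also compared between the 10 genes and the 12491 other tested genes at 1 CPM or more in some group, by Pearson's r of log2 CPM. These values describe likeness in the shape of the pattern over 3 groups of libraries, not in the size of the changes, and carry no test. Msx3 was most like Brwd1 (0.980) and Cblb (0.979), a ubiquitin ligase gene, and Scn3a most like Igf2bp2 and Sptbn1 (both 0.977). Igf2bp2 was also second for Ablim1 (0.964), after Serpinb1a (0.965). Tuba8 was most like Hr (0.996), a corepressor gene of hair follicles, and Rnase2a (0.995), a ribonuclease gene. For the genes highest with TNFa, the nearest were Thbs4 (0.997) and Foxp4 (0.996) for Macc1, Gbp2b (0.989) and Gsta1 (0.985) for Lad1, Psmd10 (0.997) and Pgd (0.996) for Rtn4rl2, Cstb (0.988) and Tbc1d13 (0.987) for Apol7c, and Hvcn1 (0.995) and the chemokine gene Ccl22 (0.992) for Tnfaip8l3. Tpbgl was most like Pmp22 (0.993) and Jade2 (0.992). Ccl22, at 0.463, 6.17 and 649 CPM, shared with Tnfaip8l3 a step at each added treatment.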

How the data were processed

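Poly(A) RNA was sequenced for 18 libraries of cultured mouse macrophages in 3 groups of 6. The deposited values are raw counts of reads per gene for 48794 Ensembl genes. Per the submitters' processing notes, the tools included STAR (2.5.2 and 2.5.2b), featureCounts 1.5.1 and RSEM 1.3.0 with GRCm38. The notes do not tie a tool to the table, and the strand setting was not given in the sources used here, nor was the annotation release. Groups came from the sample titles. Symbols and positions came from the GENCODE annotation of GRCm38 by Ensembl ID (48348 matched, 446 did not). The 10 genes and the lists of relatives, partners and markers were chosen with earlier results of these data known.

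Counts were analysed in R 4.3.3 with edgeR 4.0.16: TMM scaling, filterByExpr (minimum count 10, 13177 genes kept), a quasi-likelihood fit to all 18 libraries and Benjamini-Hochberg adjustment with a threshold of 0.05. Approximate standard errors were the fold change divided by the root of F. Ratios for the 10 genes are sums of counts over scaled library sizes with exact 95% intervals. A group at 0 was set to a floor of 3 counts over the group. PCR copies are not independent molecules, so intervals and floors cover counting error only. The scripts were tested on simulated data. Libraries of 1 group were not duplicates: chi-square per degree of freedom over genes was at least 2.59 in 45 pairs. Same-numbered libraries deviated together from their group means (r from 0.128 to 0.671 over 18 pairs, in 16 of which each library correlated best with its own number). Any pairing by number rests on the data and not on the labels. The main fit used the group only, so its adjusted p and standard errors ignore such pairing. The replicate block is an alternative. Named by rule were, among relatives and partners at 5 CPM or more in some group, up to 3 per gene with the largest called fold change in any of the 3 comparisons, and 6 neighbours with the largest called fold change for IL-4 and IL-13 or for adding TNFa. For likeness, the 2 nearest genes were named for each of the 10. Alternatives were DESeq2 1.42.0, limma voom 3.58.1, other scalings and filters, the replicate block, the 2 groups alone and each library left out. A gene that the rule named is not reported here.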

Additional observations from a re-analysis of the deposited data

Results flagged for a closer look

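In groups of 6 libraries, a value was marked where its gap to the nearest other library exceeded Dixon's 95% limit as a share of the group's range. This was applied to the 29 groups of the 10 genes in which values differed, and chance marks about 1 in 20 groups of normally distributed values. That rate does not hold for groups mostly at 0. It marked 5 values in 4 libraries, of 4 genes and all 3 groups.

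Tuba8 was at 0.0502 CPM in Control replicate 1, a single count, and at 0 in the other Control libraries, so that any count there would have been marked. Scn3a was at 0.661 CPM in Control replicate 5, against 0.168 to 0.352 CPM in the others. Apol7c was at 0.220 CPM in the same library, 4 counts, against 0 to 0.0559 CPM. Apol7c was at 60.3 CPM in replicate 2 of IL4_IL13_TNFa, against 35.9 to 43.1 CPM. Lad1 was at 1.49 CPM in replicate 1 of IL4_IL13, 31 counts, against 0.0539 to 0.453 CPM.

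Of these, the Lad1 value alone decided a direction, that of IL4_IL13 against Control. In that same library the others of the 10 genes that were high with TNFa were not raised together. Macc1 had 0 counts, Rtn4rl2 2, Apol7c 10 and Tnfaip8l3 23, all within the range of the other IL4_IL13 libraries. Met, which is not one of the 10, was raised there, at 1.92 CPM against 0.595 to 0.986 CPM in the other IL4_IL13 libraries. Met was also highest in replicate 1 of Control, at 2.96 CPM against 0.290 to 0.818 CPM. The same held for replicate 1 of IL4_IL13_TNFa, at 70.8 CPM against 40.6 to 51.4 CPM. Lad1 was not raised in Control replicate 1, where its 0.151 CPM was the lowest of that group.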

How the results depend on the processing

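Leaving out IL4_IL13 replicate 1 turned the Lad1 ratio of IL4_IL13 to Control from 2.31 to 0.938 (0.938 to 2.74 with each library left out in turn); that library holds 31 of the 46 counts. Scaling by library totals turned the Tnfaip8 change between all 3 cytokines and Control from 0.25 to -0.00295 (log2). That scaling moved the median of all genes by up to 0.249 (log2), and the share of called genes that were higher from 49.7%, 50.9% and 49.4% to 44.2%, 27.5% and 32.7% in the 3 comparisons. The number of genes going between near silence and clear expression was 132, but 48 with a lower limit of 0.2 CPM and 74 with an upper limit of 10 CPM. Of 60 calls of relatives and neighbours named by rule, 56 held in every alternative that gave a value; the exceptions included Tnfaip8 above, Rtn4 (IL4_IL13 against Control) and Lrp6 (adding TNFa). Of 27 calls of those named after their values were seen, Scn3b, Galnt3 and Fuom not counted, 19 did. The others were Tuba1b, Tubb5, Tubb4b, Zfp511 and Adam8 on adding TNFa, Tuba4a in both comparisons with Control and Tubb4b with IL-4 and IL-13. With the replicate block, genes called were 8632, 8516 and 10185 in place of 7774, 7856 and 9722. Among genes named by rule, the block changed no call other than that of Slc43a3. Without Control replicate 1 and IL4_IL13 replicate 1, an alternative chosen after seeing the data, they were 8924, 8789 and 10476. Leaving out 1 library at a time, they ranged from 7179 to 9081, 7517 to 8727 and 9472 to 10371, highest without Control replicate 1. Depth limits the ratios whose lower group holds fewer than 10 counts, which were those of Msx3, Tuba8, Macc1, Rtn4rl2, Apol7c and Tnfaip8l3 against Control, of Macc1 and Rtn4rl2 against IL4_IL13 and of Tpbgl with TNFa.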
